A study of Mus musculus with 20 samples.

Results

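Total RNA, depleted of ribosomal RNA, of mouse neural progenitor cells (NPC) was compared with that of embryonic stem (ES) cells held in the ground state by 2i medium. The comparison rests on 4 of the 10 RNA libraries of the study, 2 of NPC and 2 of ES cells in 2i, chosen by their labels, and on 4 of its 20 libraries of all kinds. The ES cells were of the male V6.5 line of the hybrid strain 129SvJae x C57BL/6. They were expanded in serum-free medium with LIF, CHIR99021 and PD0325901 on feeder fibroblasts whose division had been blocked, and then moved to gelatin, which leaves most feeders behind. The NPC came from mice of the same hybrid strain with a Sox2-eGFP genotype. Whole brains were taken at postnatal day 1, the cells were grown as neurospheres with 20 ng/mL EGF and 10 ng/mL FGF for 2 passages, and the dissociated cells were then plated on poly-D-lysine and laminin. Neither the number of mice nor their sex is given for the NPC, and a culture from whole brain can hold several cell types. The groups therefore differ at once in cell type, medium, substrate and origin, and these cannot be told apart. Where a comparison with ES cells in serum and LIF is given, it uses the 2 libraries of the same line in that medium.

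ES cells can form all tissues of the embryo. In the blastocyst this state is short, and 2i medium holds it in culture by blocking MEK, the kinase that activates ERK, and GSK3, the kinase that marks β-catenin for breakdown, while LIF activates STAT3. Neural progenitors instead need EGF and FGF, which signal through ERK, to keep dividing, and they give rise to neurons, astrocytes and oligodendrocytes. SOX2 is needed in both cell types, whereas OCT4 (gene Pou5f1) acts in ES cells and OLIG1, OLIG2 and SOX3 in neural cells.

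The NPC libraries were much shallower than those of ES cells in 2i. Reads assigned to a transcript model numbered 1.15M and 3.64M in NPC replicates 1 and 2, against 15.6M and 14.5M in the ES 2i libraries. Reads that fell in no model made up 86.6% and 59.3% in NPC, against 35.7% and 28.2% in ES 2i, and their part in the results below was not tested. Levels are given as CPM, the count of a model scaled to a common total of assigned reads and corrected by TMM factors, and a single read was worth 0.837 and 0.290 CPM in NPC and 0.0627 and 0.0649 CPM in ES 2i. The NPC libraries correlated at 0.960 and the ES 2i libraries at 0.989 across models, which do not count as independent replicates. Whether replicates were grown as separate cultures is not in the labels, and the spread behind each p-value is then that of these samples alone and may be technical.

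Of 11031 transcript models tested, 7163 differed between NPC and ES cells in 2i at an adjusted p under 0.05 (edgeR quasi-likelihood test, Benjamini-Hochberg), which is 64.9%. In NPC, 3200 were higher (29%) and 3963 lower (35.9%). With a change of at least 2-fold required as well, 5642 remained (51.1%), 2531 of them higher (22.9%) and 3111 lower (28.2%). The 2 NPC libraries lay entirely above or below the 2 ES 2i libraries for 8960 models (81.2%). Changes past 16-fold were found for 459 called models in the higher and 528 in the lower direction. The median over all models was -0.23 in log2. No read was seen in either NPC library for 893 models, and none in either ES 2i library for 102. The NPC libraries were much shallower, so these 2 counts cannot be compared. Since so many models differed, a gene group is described below by its counts beside these shares, and in bulk RNA fewer cells of a type and less RNA per cell cannot be told apart.

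**Figure D1:**
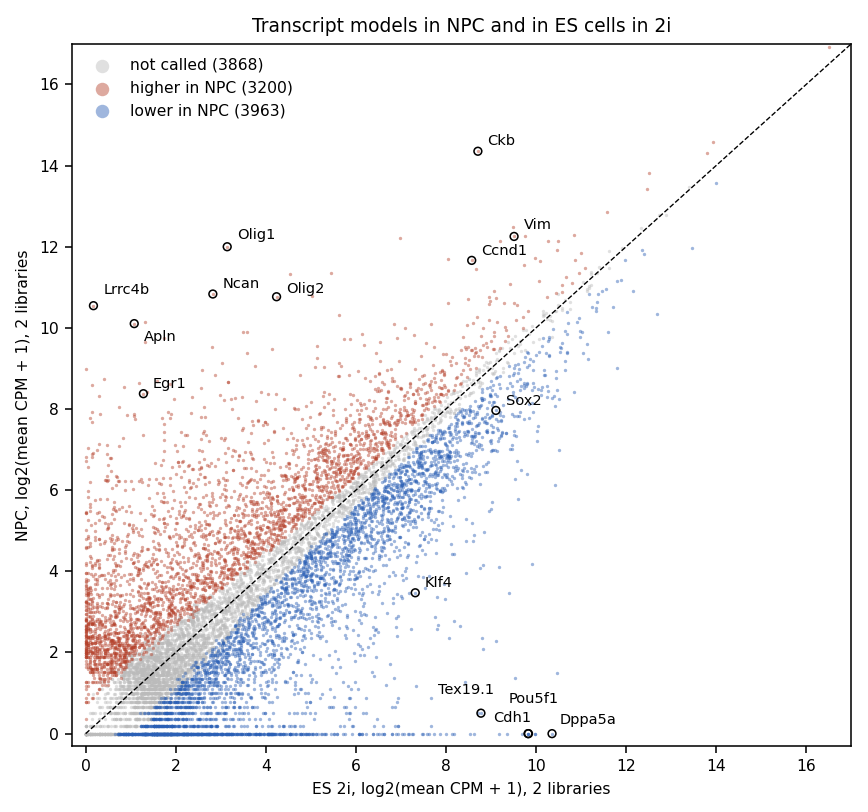
Mean level of each transcript model in ES cells in 2i (horizontal axis) and in NPC (vertical axis), as log2(CPM + 1) over 2 libraries each, coloured by the call. The dashed line marks equal levels, and circles mark genes named in the text: Olig1, Lrrc4b and Apln lie far above the line, while Dppa5a, Pou5f1 and Cdh1 lie at 0 in NPC.

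The labels were checked on genes known to separate the cells. Pou5f1 (chromosome 17, 35642984 to 35647722, all positions mm9) had 848 and 974 CPM in the ES 2i libraries and no read in either NPC library. Olig1 (chromosome 16, 91270014 to 91272184) had 3684 and 4506 CPM in NPC and 6.45 and 9.22 CPM in ES 2i. Its neighbour Olig2 (chromosome 16, 91225795 to 91228922) had 1601 and 1885 CPM in NPC and 17.7 and 18.0 CPM in ES 2i. These genes went with the labels in each of the 4 libraries.

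Sox2 (chromosome 3, 34548927 to 34551382) had 251 and 247 CPM in NPC and 627 and 476 CPM in ES 2i, and its fall of 1.15 ± 0.14 in log2 (SE) passed the test (adjusted p = 2.39e-08). Klf4 (chromosome 4, 55540009 to 55545347), a factor of the pluripotent state, had 10.0 and 10.1 CPM in NPC and 161 and 156 CPM in ES 2i. Unlike Pou5f1, it kept reads in both NPC libraries. Nes, the intermediate filament of neural stem cells, was counted low in all libraries, at 3.35 and 4.06 CPM in NPC and 0.188 and 0.130 CPM in ES 2i, and rose by 3.35 ± 0.57 (adjusted p = 6.04e-06).

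The 15 largest rises were led by Lrrc4b, which encodes a synaptic adhesion protein (chromosome 7, 51697857 to 51718714). It had 1389 and 1602 CPM in the NPC libraries and 0.125 and 0.130 CPM in the ES 2i libraries, where 2 reads were counted in each. The change was 11.99 ± 0.28 in log2 (adjusted p = 1.97e-25). Apln (chromosome X, 45378323 to 45388029), the precursor of the peptide ligand apelin, had 1088 and 1113 CPM in NPC and 1.32 and 0.909 CPM in ES 2i, a rise of 9.67 ± 0.20 (adjusted p = 2.59e-26).

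Several of these genes encode matrix proteins of the brain. Ncan (chromosome 8, 72616984 to 72644743), the proteoglycan neurocan, had 1699 and 1953 CPM in NPC and 6.39 and 5.78 CPM in ES 2i. Bcan, the related proteoglycan brevican (chromosome 3, 87791453 to 87804278), had 198 and 284 CPM in NPC against 1 and 2 reads in the ES 2i libraries, a ratio of 2739 with a 95% counting interval of 935 to 13298. Ptn, the secreted growth factor pleiotrophin, had 406 and 445 CPM in NPC and 0.251 and 0.390 CPM in ES 2i. Spon1, the secreted protein spondin 1, rose by 7.80 ± 0.31.

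Transcription factors among the 15 were Olig1, which rose by 8.99 ± 0.21, Pou3f3 (8.19 ± 0.23) and Sox8 (8.06 ± 0.21). Pou3f3 belongs to the POU factors of the developing brain, and had 234 and 294 CPM in NPC and 0.814 and 0.519 CPM in ES 2i. Sox8 is related to the oligodendrocyte factor Sox10 and had 357 and 445 CPM against 1.32 and 1.23 CPM. The group also held Slc6a11, a transporter that takes up the transmitter GABA, with 203 and 265 CPM in NPC and 0.251 and 0.260 CPM in ES 2i. Acsbg1, an acyl-CoA synthetase used as an astrocyte marker, had 1004 and 1253 CPM in NPC against 0.752 and 2.21 CPM. The other members were Olfm2, Nptx1, Fam181b and Rtn1, which rose by 8.24 to 8.85 in log2. In all 15 the lowest NPC library lay far above the highest ES 2i library, which the choice of these genes required.

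The 15 largest falls were genes with no read, or a single read, in NPC. For 13 of them neither NPC library held a read, so the fold is a lower bound, computed against 3 reads in each NPC library and covering counting error only. Dppa5a (chromosome 9, 78214861 to 78216006), an RNA-binding protein of pluripotent cells, had 1274 and 1345 CPM in ES 2i and was at least 775-fold lower in NPC. Tdh (chromosome 14, 64111184 to 64127929), the threonine dehydrogenase on which mouse ES cells depend, had 956 and 1065 CPM and was at least 598-fold lower. Tcfcp2l1 (chromosome 1, 120524522 to 120581745), a factor downstream of LIF, had 1004 and 999.6 CPM and was at least 593-fold lower.

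Pou5f1 was at least 539-fold lower by the same reckoning. Cdh1, the adhesion protein E-cadherin, was at least 536-fold lower, Lin28a, an RNA-binding protein that blocks let-7 microRNAs, at least 531-fold and Fgf4, the FGF ligand that ES cells make, at least 485-fold. The bounds for LOC100303645, BC065997, Trim6, Calcoco2, Dppa2 and AU018091 ran from 165-fold to 385-fold. Tex19.1 and Gdf3 had 1 read in NPC replicate 1 and none in replicate 2. The ratio was 2033 for Tex19.1, with a 95% counting interval of 365 to 80301, and 1954 for Gdf3, a TGF-β family ligand, with an interval of 351 to 77165. Each of these 30 genes kept its call and its direction under every alternative that could be fitted to it.

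**Figure D2:**
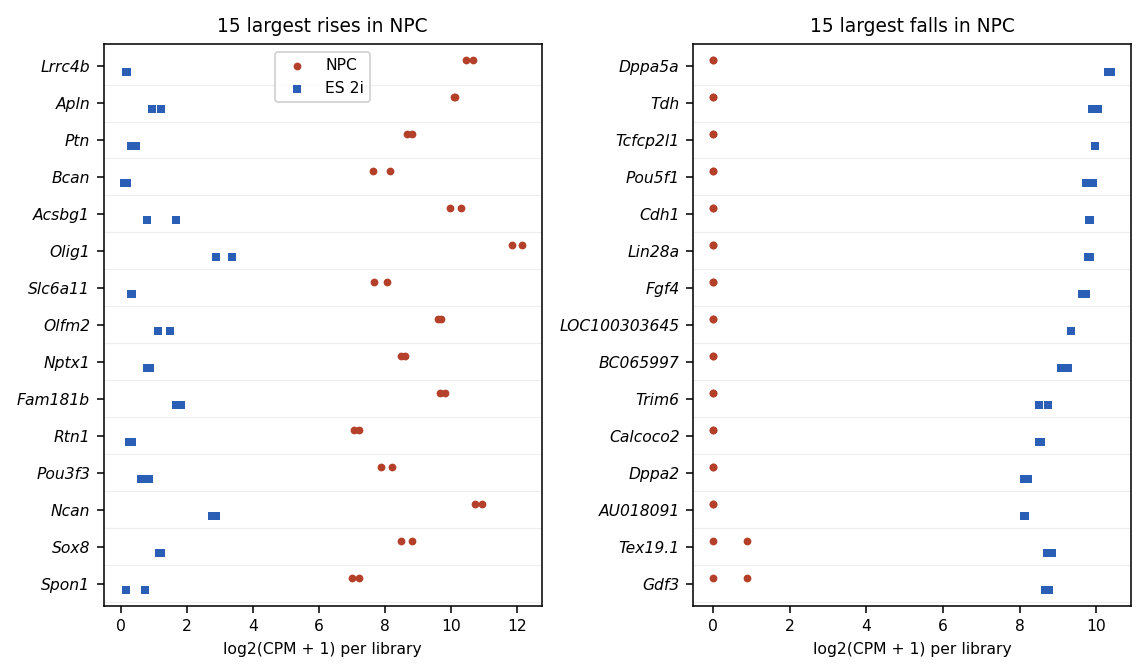
Level in each library, as log2(CPM + 1), of the 15 genes that rose most and the 15 that fell most in NPC, with circles for the 2 NPC libraries and squares for the 2 ES 2i libraries. The libraries of a group lie close together, and the NPC libraries hold no more than 1 read of any gene on the right.

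The pluripotency genes were lower almost as a whole. Of 23 naive pluripotency genes listed, 17 had a named model, and all 17 passed the filter on low counts. Of these, 16 were lower in NPC, none higher and 1 (Jam2) not called. All 20 tested of 21 core pluripotency genes were lower. With undetected genes set to their bound, the median log2 changes were -5.28 and -5.48, against -0.13 over all models treated alike. The summed level of the naive genes was 63.6 and 65.5 CPM in NPC and 5350 and 5570 CPM in ES 2i, and that of the core genes 368 and 395 CPM against 5870 and 6090 CPM, with Sox2 holding most of the NPC sum.

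Members differed in how far they fell. Nodal, the ligand that signals through SMAD2, had 164 and 189 CPM in ES 2i and no read in NPC, and was at least 105-fold lower. Utf1, a chromatin factor of pluripotent cells, was at least 116-fold lower and Prdm14, which represses differentiation genes, at least 41.1-fold. Esrrb, a nuclear receptor of the naive network, was counted at 8.21 and 5.84 CPM in ES 2i, so its bound was only 4.16-fold.

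Klf2, a partner of Klf4, kept some reads in NPC, with 5.02 and 7.82 CPM against 114 and 131 CPM. Mybl2, a factor that drives genes of dividing cells, had 113 and 138 CPM in NPC against 1353 and 1567 CPM, a fall of 3.52 ± 0.15. Nanog itself was not among the named models, but Nanogpd, a model that lies in its region, had 72.4 and 59.3 CPM in ES 2i and no read in NPC.

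Of the 10 tested of 15 formative epiblast genes, which mark the step after the naive state, 7 were lower and 2 higher in NPC. The 2 that rose also act in neural cells. Pou3f1, a POU factor of epiblast and glia, had 380.1 and 433 CPM in NPC and 7.96 and 7.99 CPM in ES 2i, and Sox4 rose by 3.17 ± 0.14. The NODAL inhibitors Lefty1, at least 17.5-fold lower, and Lefty2, at least 49.0-fold lower, were without a read in NPC.

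Neural progenitor genes were mostly higher in NPC. Of 35 listed, 17 had a named model, and all 17 passed the filter. Of these, 15 rose, none fell and 2 (Nfib and Id4) were not called, with a median of 3.35. Sox3, a close relative of Sox2 in neural progenitors, had 223 and 248 CPM in NPC and 0.940 and 1.30 CPM in ES 2i, a rise of 7.45 ± 0.24 (adjusted p = 4.58e-22). Vim, the filament protein vimentin, had 4687 and 5079 CPM against 736 and 724 CPM. Pou3f4, another POU factor of the brain, had no read in ES 2i and was at least 140-fold higher. Pax6 and Fabp7, well known in progenitors, were not tested under these symbols.

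Genes of the oligodendrocyte lineage were higher as well. Of 18 listed, 6 were tested and 5 rose. Sox10, which directs myelin genes, had 6.70 and 9.56 CPM in NPC against a single read in ES 2i, a ratio of 277 with a 95% counting interval of 47.0 to 11196. Cspg4, the NG2 proteoglycan of oligodendrocyte precursors, had 7.53 and 9.56 CPM and no read in ES 2i, so it was at least 44.7-fold higher. The myelin gene Mbp, in contrast, was at 0.837 and 1.16 CPM in NPC and was not called.

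Of the astrocyte list, 5 of 16 were tested, with 3 higher, 1 lower (2 without NPC replicate 2 or without ES 2i replicate 1) and 1 not called. S100b was at least 27.4-fold higher, and Clu, a secreted chaperone, rose by 1.50 ± 0.19. Apoe, a lipid carrier of astrocytes, was at 5.86 and 10.7 CPM in NPC and 83.0 and 106 CPM in ES 2i and so went the other way, by -3.31 ± 0.24 (adjusted p = 1.29e-13). All 5 neural ion channel and receptor genes tested of 26 listed were higher, among them the GABA-B receptor gene Gabbr2 (5.76 ± 0.34) and the glial potassium channel gene Kcnj10 (4.33 ± 0.33).

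Neuron genes did not rise as a group. Of 8 tested of 19, 1 was higher, 4 were lower and 3 were not called. The gene that rose was Sox11, a factor of young neurons, by 2.72 ± 0.14. Stmn2, a microtubule regulator known from neurons, had 205 and 201 CPM in ES 2i and 1 read in NPC, a ratio of 944 with a 95% counting interval of 169 to 37287. Tubb3, the neuronal tubulin, had 35.2 and 36.2 CPM in NPC and 219.9 and 259 CPM in ES 2i.

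Most markers listed for other cells of the brain had no named model, so the lists cannot show whether such cells were few. Those tested had low levels. Of 13 microglia and blood genes listed, 1 had a named model, and it did not pass the filter. Of the 3 endothelial genes tested of 9, Cldn5 was higher (3.35 and 3.77 CPM in NPC), Tie1 lower and Kdr not called, and the list summed to 4.19 and 4.35 CPM in NPC. The call of Cldn5 was lost without NPC replicate 2 (adjusted p = 0.104), as was that of Tie1 (adjusted p = 0.170). The ependymal factor Foxj1, the only gene tested of its list of 7, had 3.35 and 9.85 CPM in NPC and 0.376 and 0.195 CPM in ES 2i and was called higher (adjusted p = 5.24e-08).

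Fibroblast and feeder genes bear on the ES 2i libraries, since feeders were used there. Of 12 tested of 16 listed, 7 were lower in NPC, 3 higher and 2 not called, and the list summed to 226 and 269 CPM in NPC and 542 and 556 CPM in ES 2i. Col3a1, a collagen of fibroblasts, had 116 CPM in each ES 2i library, against 0 and 1.16 CPM in NPC, and Col1a2 had 54.4 and 58.9 CPM against 2 reads in all. The genes that were higher in NPC were Thy1 (log2 change 3.18), Fbn1 (1.035) and Col5a1 (0.81), and Col6a1 and Twist1 were not called. Dcn, Lum, Postn and Pdgfrb were not tested under these symbols. The part of feeder RNA in the falls was not tested.

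Trophoblast genes were lower in 3 of 5 tested of 11, with Krt8 at least 14.4-fold and Krt18 at least 7.92-fold lower. Primitive endoderm genes were lower in 3 of 6 tested of 13, with the laminin gene Lama1 at 4.19 and 5.50 CPM in NPC and 82.1 and 86.5 CPM in ES 2i. The factor Gata6 of this lineage had no read in NPC and 1.32 and 2.08 CPM in ES 2i, and its call was lost without NPC replicate 2 (adjusted p = 0.116).

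All 9 germline genes tested of 20 listed were lower in NPC. Such genes serve the germ cells, and many are silenced by DNA methylation in body cells. Their summed level was 1060 and 1070 CPM in the ES 2i libraries and 2.51 and 0 CPM in NPC. The promoters of these genes are shown for those that hold the E-box CACGTG, the palindrome that the basic helix-loop-helix factors MYC, MAX and MGA are known to bind. It is printed in capitals in each promoter below, which runs 5′ to 3′ on the strand of the gene from 250 bases before its start to 50 after it, from RefSeq on GRCm38.p6. The promoters are Mael, chr1:166238695-166238994 on the minus strand, Mov10l1, chr15:88982744-88983043 on the plus strand, Slc25a31, chr3:40708621-40708920 on the plus strand, and Taf7l, chrX:134476441-134476740 on the minus strand.
Mael: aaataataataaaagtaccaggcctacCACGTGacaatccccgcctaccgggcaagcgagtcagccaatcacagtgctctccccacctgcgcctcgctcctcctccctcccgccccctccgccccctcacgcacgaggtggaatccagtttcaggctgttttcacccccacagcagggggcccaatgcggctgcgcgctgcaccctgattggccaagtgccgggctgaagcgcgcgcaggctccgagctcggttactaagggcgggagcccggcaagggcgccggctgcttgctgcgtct
Mov10l1: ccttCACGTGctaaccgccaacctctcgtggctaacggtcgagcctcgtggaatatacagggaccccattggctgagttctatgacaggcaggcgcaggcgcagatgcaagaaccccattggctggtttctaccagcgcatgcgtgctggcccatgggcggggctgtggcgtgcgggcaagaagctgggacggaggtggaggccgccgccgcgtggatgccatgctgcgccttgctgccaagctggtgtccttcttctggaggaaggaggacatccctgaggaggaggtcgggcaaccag
Slc25a31: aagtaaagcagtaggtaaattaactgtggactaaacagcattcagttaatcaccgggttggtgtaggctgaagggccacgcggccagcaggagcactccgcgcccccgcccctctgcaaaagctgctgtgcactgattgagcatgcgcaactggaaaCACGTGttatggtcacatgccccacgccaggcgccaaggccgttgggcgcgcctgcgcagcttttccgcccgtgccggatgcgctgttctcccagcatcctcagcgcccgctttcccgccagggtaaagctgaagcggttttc
Taf7l: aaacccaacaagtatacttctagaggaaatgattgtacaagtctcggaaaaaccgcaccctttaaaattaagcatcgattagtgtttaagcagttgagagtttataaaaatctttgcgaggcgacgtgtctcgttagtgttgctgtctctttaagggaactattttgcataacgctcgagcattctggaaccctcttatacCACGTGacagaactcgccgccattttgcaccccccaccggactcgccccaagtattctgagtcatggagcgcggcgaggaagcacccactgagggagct

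Of the 9 germline genes, 8 had a promoter in the RefSeq table and 4 of these held the E-box, against 7.15% of all 32851 promoters of the same 300 bases. A listed gene was counted if any of its promoters held the motif, while the share over all counts each promoter singly. The 2 shares are therefore not like for like. Of the growth factor receptor genes with a promoter 2 of 5 held it, of the lipid genes 2 of 6 and of the Polycomb genes 3 of 12. The motif reads the same on both strands, and its position was 223 bases before the start in Mael, 246 in Mov10l1, 93 in Slc25a31 and 49 in Taf7l. It was picked out of 10 short motifs searched with the list's result known, so the share is a description and not a test, and a match is not a shown binding site.

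Mael, which acts in silencing transposons in germ cells, had 30.3 and 26.9 CPM in ES 2i and was at least 16.9-fold lower in NPC. Mov10l1, an RNA helicase that makes piRNAs, had 23.6 CPM in each ES 2i library and 1 read in NPC, a ratio of 109.6 with a 95% counting interval of 19.6 to 4335. Slc25a31, an ADP/ATP carrier of sperm, and Taf7l, a germ cell form of a general transcription factor subunit, had few reads in ES 2i, and their bounds were 3.77-fold and 3.71-fold.

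The largest germline fall after Tex19.1 was that of Sohlh2, a factor of early spermatogonia (chromosome 3, 54985966 to 55013879), with 218 and 207 CPM in ES 2i and no read in NPC, at least 126-fold lower. Piwil2, a PIWI protein, was at least 76.0-fold lower and the ribosomal protein copy Rpl10l at least 89.3-fold. Tuba3a, a testis tubulin, had 64.7 and 76.5 CPM in ES 2i and 1 read in NPC.

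CpG dinucleotides are the sites of DNA methylation, and their number in a promoter was set beside the calls. Over all 9372 named genes tested, 6753 had a promoter, with a median of 21.0 CpG in the 300 bases. The 1095 genes called at least 4-fold higher in NPC had a median of 20.5 (801 with a promoter), and the 1434 called at least 4-fold lower a median of 15.0 (979 with a promoter). Fewer than 5 CpG, as a mean over the promoters of a gene, were found in 4.12% of the former and 12.9% of the latter, against 4.66% over all. These shares are of genes with a promoter. Among the 565 genes called lower that had no read in either NPC library, the median was 9.00 CpG and 23.5% had fewer than 5. The level of the genes was not taken into account, and no test was made.

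The 2 media treat ERK signalling in opposite ways, since 2i blocks MEK and the NPC medium holds EGF and FGF. Of 21 ERK response genes listed, 15 were tested, and 11 rose in NPC, none fell and 4 were not called, with a median of 1.64. Egr1, an immediate early gene (chromosome 18, 35020861 to 35024610), had 355 and 309 CPM in NPC and 1.57 and 1.30 CPM in ES 2i, a rise of 7.62 ± 0.21 (adjusted p = 5.88e-24). Dusp6, the phosphatase that turns ERK off again (chromosome 10, 98725865 to 98730123), had 1513 and 1611 CPM in NPC and 282 and 244 CPM in ES 2i. Spry4, another feedback inhibitor (chromosome 18, 38745919 to 38760922), had 888 and 918 CPM against 158 and 156 CPM.

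The early genes Fos (3.65 ± 0.22), Ier3 (2.32 ± 0.19) and Phlda1 (2.90 ± 0.25) rose too, as did the cyclin gene Ccnd1 (3.09 ± 0.13). Spred1 rose by 0.70 ± 0.17, and its relative Spred2 was at 26.0 and 27.5 CPM in NPC and 30.8 and 27.7 CPM in ES 2i and was not called. The ETS factor genes Etv1 and Etv4 and the phosphatase gene Dusp5 were not called either. Fosl1 was called higher, but lost the call without NPC replicate 2 (adjusted p = 0.695) or ES 2i replicate 1 (0.210).

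ES cells of the same line in serum and LIF, without the MEK inhibitor, help to place these genes. Assigned reads numbered 17.3M and 3.73M in serum replicates 1 and 2, and 26.5% and 81.5% of reads fell in no model. The comparison of the media shares the ES 2i libraries with the one above, so the values are given side by side. Between the media, 10 of the 15 ERK genes were lower in 2i and 1 (Etv4) higher, where 2705 of all models were called (24.5%), 1249 higher in 2i (11.3%) and 1456 lower (13.2%). Without ES serum replicate 1, 1803 models were called between the media. Egr1 had 17.9 and 24.8 CPM in serum, far above ES 2i and far below NPC. Dusp6 had 540.0 and 654 CPM and Spry4 464 and 481 CPM in serum, also between the 2 other groups. Dusp4 took another order, with 101 and 98.8 CPM in serum, 67.8 and 77.9 CPM in NPC and 21.8 and 25.5 CPM in ES 2i. Ccnd1 had 355 and 343 CPM in serum, and its change between the media was 0.12 ± 0.13 (adjusted p = 0.528).

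**Figure D3:**
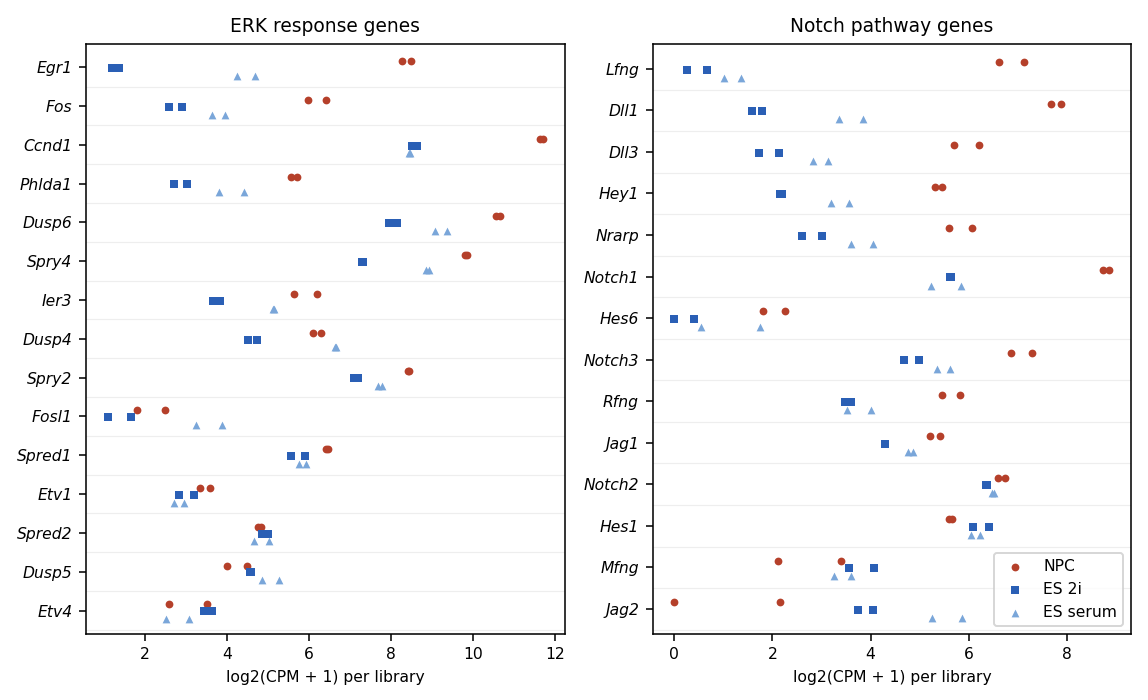
Level in each library, as log2(CPM + 1), of the tested ERK response genes (left) and Notch pathway genes (right), ordered by the change from ES 2i to NPC, with circles for NPC, squares for ES cells in 2i and triangles for ES cells in serum. Egr1, Dusp6 and Spry4 have their serum libraries between the 2 other groups, while Ccnd1 has serum and 2i libraries at like levels.

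Of 14 growth factor receptor genes listed, 6 were tested, with Egfr, Erbb2, Igf1r and Fgfrl1 higher in NPC and Erbb3 and Met lower. The model named Met lies on chromosome 9, while another of that name, not called, lies on chromosome 6, so which gene it counts is uncertain. Its call (adjusted p = 0.0456) was lost without NPC replicate 1 (adjusted p = 0.133), NPC replicate 2 (0.102) or ES 2i replicate 1 (0.0749), and with the DESeq2 size factors, the Wald test and the replicate block. Egfr, the EGF receptor (chromosome 11, 16652206 to 16813910), had 149.9 and 124 CPM in NPC and 3.13 and 2.73 CPM in ES 2i, a rise of 5.42 ± 0.22 (adjusted p = 8.81e-20). Its relative Erbb3, a receptor for neuregulins (chromosome 10, 128006424 to 128026557), went the other way, with 76.7 and 90.2 CPM in ES 2i and 1 read in NPC, a ratio of 387 with a 95% counting interval of 69.4 to 15300. Erbb2 rose by 1.55 ± 0.16 and the IGF receptor gene Igf1r by 2.18 ± 0.24. The FGF receptors Fgfr1, Fgfr2 and Fgfr4 were not tested under these symbols.

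Notch signalling passes between neighbouring cells: ligands of the DLL and JAG families bind NOTCH receptors, Fringe enzymes tune the binding, and HES and HEY repressors answer it. Of 14 genes tested of 22 listed, 10 were higher in NPC, 3 lower and 1 not called, with a median of 2.74. Among the ligands, Dll1 (chromosome 17, 15504318 to 15512787) had 203 and 236 CPM in NPC and 2.00 and 2.47 CPM in ES 2i, and Dll3 rose by 4.38 ± 0.26. Jag1 rose by 1.07 ± 0.18, whereas Jag2 fell, with 0 and 3.48 CPM in NPC against 12.3 and 15.5 CPM.

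The receptor gene Notch1 (chromosome 2, 26313422 to 26359342) had 429 and 467 CPM in NPC and 48.0 and 49.2 CPM in ES 2i, and Notch3 rose by 2.31 ± 0.16. Notch2 had 95.4 and 106 CPM against 81.1 and 82.3 CPM and was not called (adjusted p = 0.0525), but was called higher with the DESeq2 size factors (0.0164), with the DESeq2 Wald test (0.0292) and with all libraries thinned to the same depth (log2 change 0.81, adjusted p = 4.77e-05). The Fringe gene Lfng had 97.1 and 138 CPM in NPC and 0.188 and 0.584 CPM in ES 2i. The targets Hey1 (3.46 ± 0.24) and Nrarp (3.23 ± 0.22) rose, while Hes1 had 47.7 and 49.3 CPM in NPC and 84.0 and 66.9 CPM in ES 2i, a fall of 0.63 ± 0.16 that missed the threshold with all libraries thinned to the same depth (adjusted p = 0.0579).

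In the sonic hedgehog pathway, the signal transducer and co-receptors rose and 2 GLI factors fell. Of 9 genes tested of 12, 6 were higher, 2 lower and 1 not called. Smo, the signal transducer (chromosome 6, 29685497 to 29711366), had 429 and 500.1 CPM in NPC and 84.1 and 96.1 CPM in ES 2i. The co-receptor Gas1 (chromosome 13, 60275766 to 60278896) had 285 and 306 CPM against 7.20 and 7.66 CPM, and Cdon rose by 2.04 ± 0.18. The factor Gli1, a target of the pathway, had 2 reads in NPC and 11.2 and 10.8 CPM in ES 2i, and Gli2 fell by 2.40 ± 0.27. Without NPC replicate 2, 3 of the 6 rises were left, as Ptch1, Hhip and Sufu lost their calls.

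BMP pathway genes were higher in 6, lower in 2 and not called in 2 of the 10 tested of 14. The ligand gene Bmp7 had 51.1 and 54.5 CPM in NPC and 2.51 and 3.25 CPM in ES 2i. The target Id2 rose by 3.88 ± 0.21 and Id3 by 1.34 ± 0.14, while the inhibitory Smad6 and Smad7 fell, from 14.4 and 16.4 CPM to 1.67 and 0.869 CPM for Smad6. Id1 had 36.8 and 39.4 CPM in NPC and 24.0 and 26.5 CPM in ES 2i, and its call was lost without NPC replicate 2 (adjusted p = 0.152) or ES 2i replicate 1 (0.0659).

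WNT target genes were split. The 2i medium holds a GSK3 inhibitor that activates β-catenin, and its part in these changes was not tested. Of 13 tested of 17, 4 were higher in NPC, 4 lower and 5 not called. The rise of Lgr5 (1.22, adjusted p = 0.0487) lost its call with the DESeq2 Wald test (0.128), without the filter on low counts (0.168) and with the replicate block (0.0801). Without NPC replicate 2 its log2 change was 0.709. Ccnd2 (chromosome 6, 127075727 to 127101066), a cyclin, had 706 and 717 CPM in NPC and 18.8 and 14.5 CPM in ES 2i, and Axin2, a feedback inhibitor, 25.1 and 35.9 CPM against 10.1 and 12.7 CPM. Lef1 (at least 3.83-fold lower) and Cdx1 (at least 4.20-fold lower) were without a read in NPC, and Notum, an enzyme that inactivates WNT, fell from 19.4 and 28.0 CPM to 1.67 and 0.290 CPM.

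Of the LIF and STAT3 list, 7 of 12 genes were tested, with 5 lower in NPC, 1 higher and 1 not called. The fall of Tyk2 (-1.63, adjusted p = 0.0476) lost its call with the DESeq2 size factors (0.0541), the Wald test (0.144) and the replicate block (0.0675). The feedback inhibitor Socs3 had 16.7 and 24.0 CPM in NPC and 281 and 301 CPM in ES 2i, a fall of 3.73 ± 0.17 (adjusted p = 3.96e-18). The shared receptor subunit gene Il6st fell by 1.38 ± 0.15 and the kinase gene Pim3 by 1.49 ± 0.14. Junb was called higher, but not without NPC replicate 2 (adjusted p = 0.0647).

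Within several families, some members were higher in NPC and others lower. All 9 cadherin genes tested of 13 were called, 7 higher and 2 lower in NPC. Cdh1 (chromosome 8, 109127268 to 109194146) had 909 and 902 CPM in ES 2i and no read in NPC. N-cadherin, Cdh2 (chromosome 18, 16747386 to 16967558), had 174 and 151 CPM in NPC and 4.82 and 5.91 CPM in ES 2i. Cdh4, the R-cadherin gene, had 307 and 312 CPM against 7.64 and 10.3 CPM, and Cdh13 and Cdh20 rose by 6.57 ± 0.29 and 6.12 ± 0.30. The call of Celsr3 rested on NPC replicate 2, where it had 18.0 CPM against 8.37 CPM in replicate 1, and without it the change was -0.01. It was not called without ES 2i replicate 1 either (adjusted p = 0.103). Cdh11, at 3.35 and 2.61 CPM in NPC and 1.50 and 0.779 CPM in ES 2i (adjusted p = 0.0408), lost its call in 6 alternatives, among them without NPC replicate 1 (adjusted p = 0.123), NPC replicate 2 (0.194) or ES 2i replicate 2 (0.217), and 5 cadherin genes were higher without NPC replicate 2.

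TET enzymes oxidise methylated cytosine. Tet3 (chromosome 6, 83312368 to 83391672) had 112 and 117 CPM in NPC and 9.71 and 9.48 CPM in ES 2i. Tet1 had no read in NPC and 1.63 and 2.40 CPM in ES 2i, so its bound was only 1.19-fold, and its call was lost without NPC replicate 2 (adjusted p = 0.101). Tet2 had 2 reads in NPC and 6.01 and 3.64 CPM in ES 2i. Of the 7 tested of 15 DNA methylation genes, 3 were higher and 4 lower, and 1 was higher without NPC replicate 1, as Dnmt1 and Mbd2 lost their calls.

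Polycomb complexes keep genes silent, and their CBX subunits differ between ES cells and committed cells. Cbx7 (chromosome 15, 79746243 to 79763076) had 43.7 and 42.7 CPM in ES 2i and 1.67 and 2.61 CPM in NPC, whereas Cbx8 (chromosome 11, 118899750 to 118902227) had 2.07 and 0.909 CPM in ES 2i and 35.2 and 40.0 CPM in NPC. Of 13 Polycomb genes tested of 25, 3 were higher and 7 lower, among them Eed, a core subunit, by -2.10 ± 0.18, and Ezh1, a methyltransferase, by -3.05 ± 0.33.

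BAF complexes move nucleosomes and change subunits when neural cells form. Of 17 genes tested of 23, 5 were higher, 4 lower and 8 not called. Dpf1, a subunit of the neuronal complex, rose from 44.4 and 47.1 CPM to 153 and 194 CPM, and Smarcd3 from 21.2 and 25.3 CPM to 108 and 126 CPM. Actl6a, the subunit of dividing cells, fell by 1.52 ± 0.14. Without NPC replicate 1 only 2 of the 4 falls were called, and without NPC replicate 2 only 3 of the 5 rises.

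Genes of CTCF and cohesin, which shape chromosome loops, were called higher in 3, lower in 3 and not called in 3 of 9 tested of 14. The cohesin subunit gene Rad21 had 210.1 and 196 CPM in NPC and 484 and 429 CPM in ES 2i, and Smc1a rose by 1.96 ± 0.22. The zinc finger factor Yy1 fell by 1.26 ± 0.18. Ctcf itself was counted at 0.837 and 1.74 CPM in NPC and 4.14 and 3.12 CPM in ES 2i, and its fall of 1.16 ± 0.51 (adjusted p = 0.0452) was lost in 7 alternatives. These were the fits without NPC replicate 1 (adjusted p = 0.128), NPC replicate 2 (0.108) or ES 2i replicate 1 (0.0896), the DESeq2 size factors (0.0553), the Wald test (0.14), the 4 libraries alone (0.0512) and the replicate block (0.0634).

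Of the further SOX genes, 4 of 6 were tested, with Sox12 (2.51 ± 0.15) and Sox13 (1.50 ± 0.32) higher, Sox18 not called, and Sox15, a relative of Sox2 in ES cells, without a read in NPC and at least 11.3-fold lower.

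**Figure D4:**
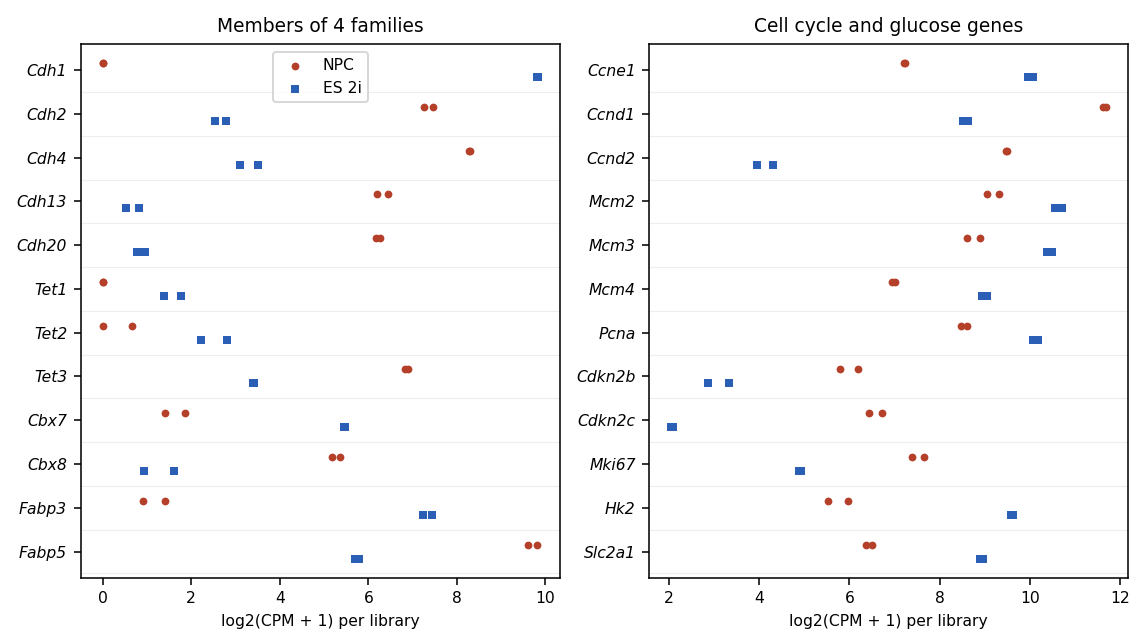
Level in each library, as log2(CPM + 1), of members of 4 families that moved apart (left) and of cell cycle and glucose genes (right), with circles for NPC and squares for ES cells in 2i. The genes were picked after their values were seen: within a family Cdh1 and Cdh2, Tet1 and Tet3, Cbx7 and Cbx8, and Fabp3 and Fabp5 lie on opposite sides.

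Lipid genes were mostly higher in NPC, with 7 of 12 tested of 15 higher, 3 lower and 2 not called. Among fatty acid binding proteins, Fabp5 had 782 and 902 CPM in NPC and 50.7 and 54.3 CPM in ES 2i, while Fabp3 had 1.67 and 0.869 CPM against 150.0 and 173 CPM. The desaturase genes Scd2 (2.51 ± 0.13) and Fads2 (3.25 ± 0.15) rose. Of 16 sterol synthesis genes tested of 24, 8 were higher, 2 lower (1 without NPC replicate 1) and 6 not called. Dhcr7, which makes cholesterol in the last step, had 246 and 266 CPM in NPC and 50.2 and 55.9 CPM in ES 2i, and Fdps rose by 1.61 ± 0.13.

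Glycolysis genes were split, with 6 higher, 7 lower and 4 not called of 17 tested of 21. With the 4 libraries alone, 4 were higher and 6 lower, as Pgk1, Pkm2 and Gapdh lost their calls. Without the filter on low counts, 4 were higher and 7 lower. Hk2, a hexokinase, had 45.2 and 62.0 CPM in NPC and 772 and 789 CPM in ES 2i. The other hexokinase gene tested, Hk1, was counted at 2.51 and 2.03 CPM in NPC and 0.564 and 1.17 CPM in ES 2i. Its level cannot be set against that of Hk2, since reads that overlap several models of a gene were not counted. Hk1 was not called (adjusted p = 0.0851). It was called higher without ES 2i replicate 2 (adjusted p = 0.0473). In glucose uptake, the glucose transporter genes Slc2a1 and Slc2a3 fell by 2.48 ± 0.15 and 3.06 ± 0.22. Later enzymes were higher in part, such as Tpi1 (1.51 ± 0.13) and Pfkl (1.04 ± 0.14), and lower in part, such as Pgam1 (-0.57).

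Of 12 serine, glycine and one-carbon genes tested of 16, 8 were lower, 2 higher and 2 not called. Mthfd2, a mitochondrial folate enzyme, had 65.3 and 82.0 CPM in NPC and 265 and 284 CPM in ES 2i, and Shmt1 fell by 1.69 ± 0.15. Phgdh, the entry enzyme of serine synthesis, rose, with 1506 and 1730.2 CPM in NPC and 450.4 and 556 CPM in ES 2i. Ckb, the brain creatine kinase (chromosome 12, 112907566 to 112910549), was among the 10 models with the most reads in NPC, with 18534 and 23333 CPM against 371 and 465 CPM.

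The cell cycle list was split. Of 26 genes tested of 32, 10 were higher in NPC, 11 lower and 5 not called. Of the D type cyclins, Ccnd1 and Ccnd2 rose and Ccnd3 was not called (0.12 ± 0.26, adjusted p = 0.698). Ccnd1 (chromosome 7, 152115836 to 152125830) was at 3324 and 3164 CPM in NPC and 396 and 364 CPM in ES 2i, while the S phase cyclin gene Ccne1 had 147 and 149 CPM in NPC and 999 and 1076 CPM in ES 2i. Replication genes fell, among them Mcm2 (-1.46 ± 0.13), Mcm3 (-1.68 ± 0.13) and Pcna (-1.60 ± 0.13).

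Genes of inhibitors of the kinases that D cyclins activate rose as well, such as Cdkn2c and Cdkn2b. Of the other inhibitor genes tested, Cdkn2a (2.02) and Cdkn1a (2.56) rose too, and Cdkn1b was not called. Cdkn2c had 85.4 and 105 CPM in NPC and 3.26 and 3.12 CPM in ES 2i, and Cdkn2b 54.4 and 71.6 CPM against 9.08 and 6.23 CPM. Mki67, the proliferation antigen, had 201 and 166 CPM in NPC and 29.3 and 28.6 CPM in ES 2i, whereas the kinase gene Cdk1 fell by 1.18 ± 0.13.

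Basement membrane and integrin genes were higher in 6, lower in 2 and not called in 3 of 11 tested of 18. Tnc, the matrix protein tenascin C (chromosome 4, 63620819 to 63708049), had 618 and 708 CPM in NPC and 11.9 and 10.0 CPM in ES 2i. The laminin genes Lama4 (3.43 ± 0.23), Lama5 and Lamb2 rose, while Lamc1 fell by 1.72 ± 0.13 and Nid1, which links laminin to collagen, from 82.5 and 79.1 CPM to 1.67 and 2.03 CPM.

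Of 12 imprinted genes tested of 25, which are read from a single parental copy, 4 were higher and 7 lower in NPC, and 4 were lower without NPC replicate 2. Ndn had 154 and 196 CPM in NPC and 17.2 CPM in each ES 2i library, and Peg12 rose by 3.78 ± 0.16. The noncoding RNA gene Meg3 had no read in NPC and was at least 7.58-fold lower, and Phlda2 at least 13.7-fold. Of 10 Hox genes tested of 16, 2 were higher and 3 lower, all at low counts. Without NPC replicate 2 none was higher and 1 lower, and without ES 2i replicate 1 none was higher. The list summed to 4.19 and 4.64 CPM in NPC and 8.65 and 9.54 CPM in ES 2i.

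Of 77 models tested of 81 whose symbols follow the pattern of ribosomal protein genes, which also takes in some kinase genes, 7 were higher, 27 lower and 43 not called. In place of 7, 1 model was called higher without NPC replicate 2, and 1 without ES 2i replicate 1. Rps4x fell by 5.68 ± 0.20, from 869 and 1050.0 CPM to 13.4 and 20.9 CPM, but its model lies on chromosome 6 and ribosomal protein genes have near-identical copies among which reads can be split, so the value is uncertain.

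**Figure D5:**
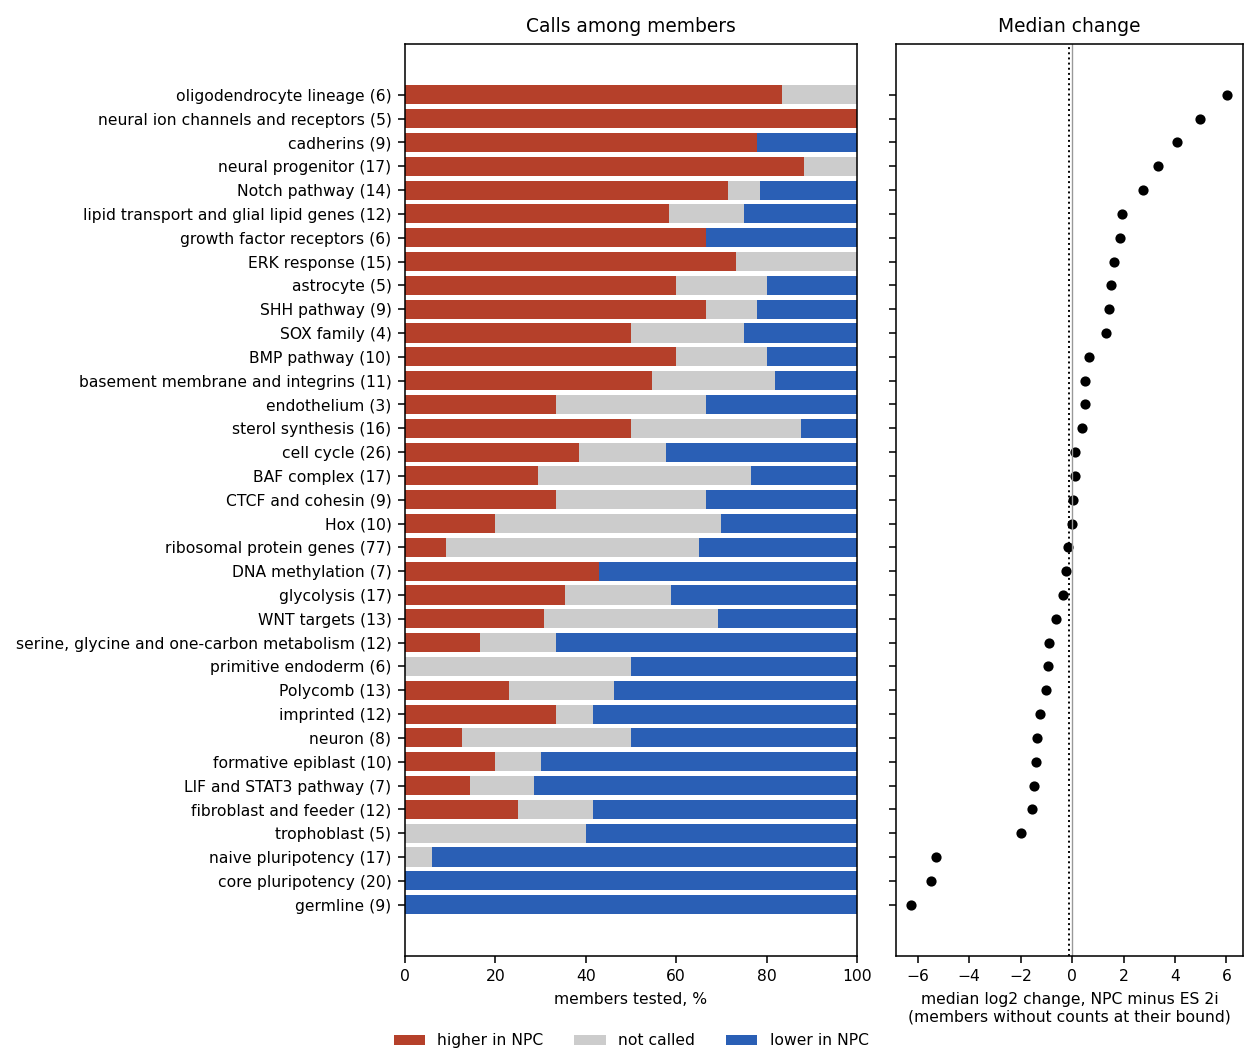
Share of tested members called higher, not called or called lower in NPC (left, %) and the median log2 change with members without counts at their bound (right), for each gene list with at least 3 members tested, whose number is in brackets. The dotted line marks the median over all models, -0.13, and the pluripotency and germline lists lie farthest to the left.

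Several of the groups also differed between the media of the ES cells. Against ES cells in serum, 6729 of the 11031 models were called for NPC (61%), a comparison that shares the NPC libraries with the one above. Each of the 9 germline genes was called higher in 2i than in serum, against 11.3% of all models. The lists were chosen with earlier results of these data known, so such counts are descriptions and not tests. Sohlh2 had 10.3 and 11.1 CPM in serum against 218 and 207 CPM in 2i, a difference of 4.31 ± 0.16 (adjusted p = 5.06e-18). Tuba3a had 8.36 and 10.8 CPM in serum and 64.7 and 76.5 CPM in 2i.

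All 5 trophoblast genes were lower in 2i than in serum, against 13.2% of all models, with Krt8 at 192 and 224 CPM in serum. Of the 17 naive pluripotency genes, 6 were higher and 5 lower in 2i, with Prdm14 higher by 2.07 ± 0.20 and Dppa5a lower by -0.97 ± 0.13, while 6 of 20 core genes differed, 2 higher and 4 lower, near the 24.5% of all models called between the media. Of the 17 neural progenitor genes, 6 were lower and 2 higher in 2i. From other lists, Pou3f1 had 46.3 and 47.7 CPM in serum, Tnc 121 and 115 CPM and Cdh2 32.2 and 30.8 CPM, each between the levels of ES 2i and NPC. Of the 14 Notch genes, 9 were lower in 2i than in serum and none higher.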

How the data were processed

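The 4 libraries compared, and the 6 others of RNA, were made with a stranded total RNA kit that removes ribosomal RNA, from 350 ng of RNA of 0.9M lysed cells with an integrity number above 9, and sequenced from both ends for 75 cycles, per the labels' protocols. Each deposited file held raw counts, 1 whole number for each transcript model, laid out as HTSeq writes them. The submitters' processing notes name TopHat2 2.1.0, TopHat and HTSeq as tools and mm9 as the build. How HTSeq treated overlaps and strand is not given in the sources used here. A read that overlaps several models of a gene counts as ambiguous, so the level of a gene with many models is understated, and antisense pairs cannot be told apart. The design had foreseen counts per gene, and the files hold 55419 transcript models, of which 11767 could be named, with 10334 symbols, through a table of the authors used for names and positions only. Its 10 columns of normalized values were not used. Library sizes and tests left out 92 spike-in and 5 summary entries, and reads in the summary entries were 62.1% to 92.6% of a library.

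Counts of all 10 RNA libraries were fitted with edgeR 4.0.16 (quasi-likelihood test, TMM, filter by expression, prior count 2, group as the only term) in R 4.3.3, which left 5 residual degrees of freedom and a biological coefficient of variation of 0.117. The filter kept 11031 models and left out 44388. A model kept only for its level in another group can be low in both groups compared here. P-values carry the Benjamini-Hochberg adjustment over all models, and calls were made under 0.05. Alternatives used DESeq2 1.42.0 and the settings named in the closing section, and the script was tested on simulated data. A symbol is given by its model with the highest mean CPM over the 4 libraries. Levels with no count in a group were bounded at 3 reads per library, 1.69 CPM in NPC and 0.191 CPM in ES 2i on average, and ratios against 1 to 3 reads carry an exact 95% counting interval. Both cover counting error only, since amplified reads are not independent molecules.

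Named genes were the 15 largest rises and falls among called genes with a mean log2 CPM of at least 3 and no overlap between groups, members of 37 lists, 6 label checks, the 10 models with the most reads in each group, and up to 10 genes by medium. The members and lists were chosen with earlier results of these data known. Of 444 list members tested, 325 had a promoter in the RefSeq table (GRCm38.p6), which was used for sequence only and whose coordinates are not those of mm9.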

Additional observations from a re-analysis of the deposited data

Results flagged for a closer look

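The 10 genes given here are those whose change in NPC depended most on which ES cells served as the reference, by a test of ES cells in 2i against ES cells in serum in the same edgeR fit. They are the largest differences between the media among genes called both in NPC against ES 2i and between the media, and either not called or called in the opposite direction in NPC against serum. Of 34 models called in opposite directions against the 2 ES groups and 1189 called against ES 2i alone, 34 and 548 were called between the media. The NPC and ES libraries are shared between these contrasts.

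Of these genes, 6 were lower in 2i. Thbd, the anticoagulant receptor thrombomodulin, had 31.8 and 37.7 CPM in NPC, 6.58 and 4.09 CPM in ES 2i and 91.4 and 99.3 CPM in serum, a difference between the media of -4.09 ± 0.19 in log2 (adjusted p = 1.79e-16). Id1, a target of BMP, had 36.8 and 39.4 CPM in NPC and 145 and 152 CPM in serum, and differed by -2.55 ± 0.14. Peg10, an imprinted gene derived from a retrotransposon, had 136 and 149 CPM in NPC, 68.9 and 73.4 CPM in ES 2i and 352 and 386 CPM in serum, and differed by -2.37 ± 0.13. Capn2, a protease, differed by -2.22 ± 0.14, S100a13 by -2.52 ± 0.23 and Arl4c by -2.52 ± 0.18. Arl4c had 51.9 and 54.8 CPM in NPC and 46.2 and 42.9 CPM in serum, close to each other and far above ES 2i.

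The other 4 were higher in 2i. Zic2, a factor of the formative epiblast and the neural plate, had 25.1 and 31.6 CPM in NPC, 62.7 and 65 CPM in ES 2i and 10.6 and 12.4 CPM in serum, and differed by 2.50 ± 0.17 (adjusted p = 3.94e-13). Zic5, which lies on the same chromosome, differed by 2.28 ± 0.21, with 12.6 and 6.66 CPM in NPC and 28.3 and 28.4 CPM in ES 2i. Pgbd5, a gene derived from a transposase, differed by 2.33 ± 0.25. The mitochondrial model GU332589 differed by 3.56 ± 0.68, but had 2659 CPM in ES 2i replicate 1 and 75.6 CPM in replicate 2, and without ES 2i replicate 1 its change in NPC was -0.18 (adjusted p = 0.669).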

How the results depend on the processing

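The count of called models, 7163, was 7141 with DESeq2 size factors, 6444 with the DESeq2 Wald test, 7642 without the filter on low counts, 7107 with the 4 libraries alone and 6838 with models summed per symbol. Leaving out 1 library of NPC or ES 2i in turn gave 5231 to 7082 calls (4422 to 5848 of at least 2-fold, and 290 to 316 list members against 328), the lowest count without NPC replicate 2. With the 4 libraries thinned to the 1150624 reads of the smallest, 5875 models passed the filter, 4356 were called and 3121 of these were at least 2-fold, and the calls were 49.7% higher in NPC against 44.7% without thinning. Fewer models tested is part of that lower count, and the rest was not tested. Between the media, leaving out 1 ES library in turn gave 1803 to 2426 calls, the lowest without ES serum replicate 1. A replicate block gave 7084 calls, 5585 of at least 2-fold. Deviations of same-numbered libraries from their group means correlated at 0.072, so the numbers were not taken as pairs. Leaving out 1 library in turn, the log2 change ranged from -0.0145 to 1.144 for Celsr3 and from -0.0257 to 0.628 for Rps6ka4, each lowest and reversed without NPC replicate 2, and that of Srebf2 turned direction with models summed per symbol (0.0494); the cause was not tested. In NPC a gene under about 1 CPM rests on a few reads, so low genes are less certain there than in ES 2i.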

Other observations

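Xist, the noncoding RNA that coats an inactive X chromosome, was counted with 75 and 125 reads in the NPC libraries and with 2 and 0 reads in the much deeper ES 2i libraries. Tsix, its antisense partner, had 1 and 1 reads in NPC and 221 and 187 reads in ES 2i. Eif2s3y, a gene of the Y chromosome, had 9 and 27 reads in NPC and 149 and 107 reads in ES 2i. These are raw reads, and a read was worth 0.837 and 0.290 CPM in NPC and 0.0627 and 0.0649 CPM in ES 2i. The only Y chromosome model tested had a log2 change of -0.073 and was not called. The V6.5 line is labelled male, and the labels give no sex or number of animals for the NPC. The models of Xist and Tsix overlap on opposite strands and the strand setting of the counting is not given, so their counts cannot be told apart by strand. These genes were chosen after their values were seen.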
